A study of Rattus norvegicus with 2 samples.

Results

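Liver RNA of rats on a low-fat and a high-fat diet was examined here for 9 genes of the interferon response and of antigen presentation, out of 10411 genes with a single symbol on the array. They are Oas1a, Ifit3 and Mx1 (antiviral effectors), Ubd (a ubiquitin-like modifier), and Psmb8, Psmb9, Tap1, RT1-Ba and B2m (antigen presentation). All 12 probe sets whose single gene symbol in the platform annotation was one of these names were taken, out of 15866 probe sets without the array's controls. The genes had been picked with their values on these arrays known, so their ratios are given as a description and support nothing. Both groups were livers of the SD-rat strain, with 9 weeks of feeding on food based on AIN93G, a purified diet commonly used for rodents. The labels give an age of 4 weeks for both groups. That cannot be the age after 9 weeks of feeding, so the age at sampling is unclear. The low-fat group (Low-Fat) and the high-fat group (High-Fat) each had 1 array. How much fat the diets held, the sex of the rats and whether RNA of several animals was pooled are not stated in the labels. There were no replicates and hence no test, so every difference below describes these 2 arrays.

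Interferons are cytokines that cells release on infection. Type I interferons signal through the receptor chains Ifnar1 and Ifnar2 to transcription factors that bind the interferon-stimulated response element (ISRE) and switch on antiviral genes such as Oas1a, Ifit3 and Mx1. Interferon gamma signals through Ifngr1 and Ifngr2, and through Irf1 it also raises the genes of antigen presentation. In that pathway the immunoproteasome subunits Psmb8 and Psmb9 help cut proteins to peptides, the Tap transporter carries the peptides into the endoplasmic reticulum, and B2m completes the class I molecule that shows them on nearly every cell. Class II molecules, such as the one whose alpha chain RT1-Ba encodes, are made mainly by macrophages, dendritic cells and B cells.

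The members' promoters are shown first, because genes of both groups hold the letters of the ISRE. RefSeq promoter windows of assembly GRCr8, from 250 bases before to 50 after each start site, were found for 9 of 9 members. The ISRE core was searched on both strands as GAAA, any 2 bases, and GAAA. It was in 5 of 9 members' windows, against 3.92% of 33469 windows of the same length. The 5 were Oas1a and Ifit3 of the antiviral group and Psmb8, Tap1 and B2m of the antigen presentation group. In Oas1a there were 2 overlapping matches, together from base -41 to -26 before the start. Ifit3 had its match at -44 to -35, B2m at -150 to -141, Tap1 at -121 to -112, and Psmb8 across the start itself, from -4 to 6. Stretches of these 5 windows follow, 5′ to 3′ in the direction of the gene, with the ISRE core matches in capitals. In B2m the last capitals mark a CCAAT box, which reads ATTGG on the strand shown.
Oas1a, chr12:41330386-41330465, plus strand: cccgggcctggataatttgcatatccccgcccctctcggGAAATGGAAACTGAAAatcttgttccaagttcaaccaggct
Ifit3, chr1:241527246-241527325, plus strand: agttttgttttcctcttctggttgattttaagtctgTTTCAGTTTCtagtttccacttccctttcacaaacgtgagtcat
Psmb8, chr20:4657026-4657105, minus strand: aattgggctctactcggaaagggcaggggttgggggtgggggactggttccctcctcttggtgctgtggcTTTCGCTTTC
Tap1, chr20:4668614-4668693, minus strand: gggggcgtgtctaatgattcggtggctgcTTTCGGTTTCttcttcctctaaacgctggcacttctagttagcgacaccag
B2m, chr3:129549160-129549279, plus strand: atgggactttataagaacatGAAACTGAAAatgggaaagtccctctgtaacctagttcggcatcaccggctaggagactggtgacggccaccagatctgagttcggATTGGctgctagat

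The same letters were not in the windows of Mx1, Ubd, Psmb9 and RT1-Ba. The 250 bases before the start are shown for Mx1, the antiviral member without these letters, and for Ubd, the member with the highest ratio. RT1-Ba is shown from -90 to -21, where the capitals mark TGACGTCA, the cyclic AMP response element letters (1.83% of all windows, 1 of 9 members), and the CCAAT box on the other strand (37.5% of all windows, 6 of 9 members). Class II promoters are known for an arrangement of X and Y boxes, with CCAAT in the Y box. A gamma-activated sequence, TTCNNNGAA, was in 2 of 9 members (Oas1a and Psmb8) and in 8.87% of all windows. A match of letters is a description and no evidence of binding.
Mx1, chr11:50294607-50294856, minus strand: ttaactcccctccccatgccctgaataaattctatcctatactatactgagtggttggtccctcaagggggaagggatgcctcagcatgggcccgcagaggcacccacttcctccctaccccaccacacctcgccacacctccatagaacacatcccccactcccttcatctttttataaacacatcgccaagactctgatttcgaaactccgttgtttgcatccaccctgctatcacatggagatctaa
Ubd, chr20:1392686-1392935, minus strand: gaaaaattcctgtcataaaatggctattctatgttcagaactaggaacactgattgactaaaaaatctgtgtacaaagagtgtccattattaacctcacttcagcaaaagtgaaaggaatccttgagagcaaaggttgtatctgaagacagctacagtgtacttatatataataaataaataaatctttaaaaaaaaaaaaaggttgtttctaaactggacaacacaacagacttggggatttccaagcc
RT1-Ba, chr20:4576967-4577036, plus strand: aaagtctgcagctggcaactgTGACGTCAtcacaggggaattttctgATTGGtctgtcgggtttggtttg

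Of the 9 genes, 5 lay on chromosome 20, which holds the rat major histocompatibility complex (RT1). Psmb9 and Tap1 are read in opposite directions with 456 bases between their start sites, so the ISRE core of the Tap1 window also lies upstream of Psmb9, outside the 250 bases taken for it.

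The signals are intensities on a linear scale. The floor of each array was its median signal, 15.7 for low-fat and 14 for high-fat, and a probe set was called measured where its mean log2 signal reached the mean of both floors. From each log2 ratio (high-fat over low-fat) the median over 7864 measured probe sets, -0.12, was subtracted. Higher and lower refer to that centred ratio. Where a gene is given with a pair of signals, the low-fat signal comes first and the high-fat signal second. Of the 12 member probe sets 10 were measured, covering 8 of the 9 genes, and Mx1 was not. The robust SD of the ratio over probe sets of like signal, in 10 equal classes of signal, was 0.49 among the dimmest and 0.17 among the brightest. It describes the spread across probe sets on this pair of arrays, not the spread between animals.

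The antiviral members were lower on the high-fat array. Oas1a, which makes the 2′-5′ oligoadenylates that activate an RNA-degrading enzyme, had a low-fat signal of 66.3 and a high-fat signal of 30.1. Both signals were above the floors, and the ratio was -1.02 (2.03-fold lower), in a signal class with a robust SD of 0.31. Ifit3, which takes part in the sensing of viral RNA, had signals of 30 and 12.4. Its high-fat signal was below the floor, so that it was at least 1.98-fold lower, with a ratio of -1.16 as measured and a robust SD of 0.42 at that signal. Mx1, a GTPase that blocks viral replication, had 17.4 and 8, of which only the low-fat signal was above its floor. Against the high-fat floor Mx1 was at least 1.15-fold lower.

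All 3 antiviral genes, with Mx1 not measured, thus had the lower signal on the high-fat array, but only Oas1a was above the floor on both. Of all measured probe sets 50% were lower by the centred ratio, and their median ratio before centring was -0.12. Among measured probe sets 0.903% were at least 2-fold lower and 0.776% were past 2-fold on the higher side. Oas1a was past 2-fold and ranked 63rd from the lowest of 7864. Ifit3 was past 2-fold only by the ratio as measured, since its bound was short of it. Dim probe sets crossed 2-fold more often: in the signal class of Ifit3 1.4% were at least 2-fold lower, and in that of Oas1a 0.636%. Oas1a was just past 2-fold, and it fell short of 2-fold with quantile normalization (-0.98), after loess (-0.997), with no floor (-0.996) and with a pseudocount of 50 (-0.48). Oas1a has close paralogues in the rat, and its probe set name (ending in _a_at) marks several transcripts, so its signal may include other Oas1 transcripts.

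**Figure D1:**
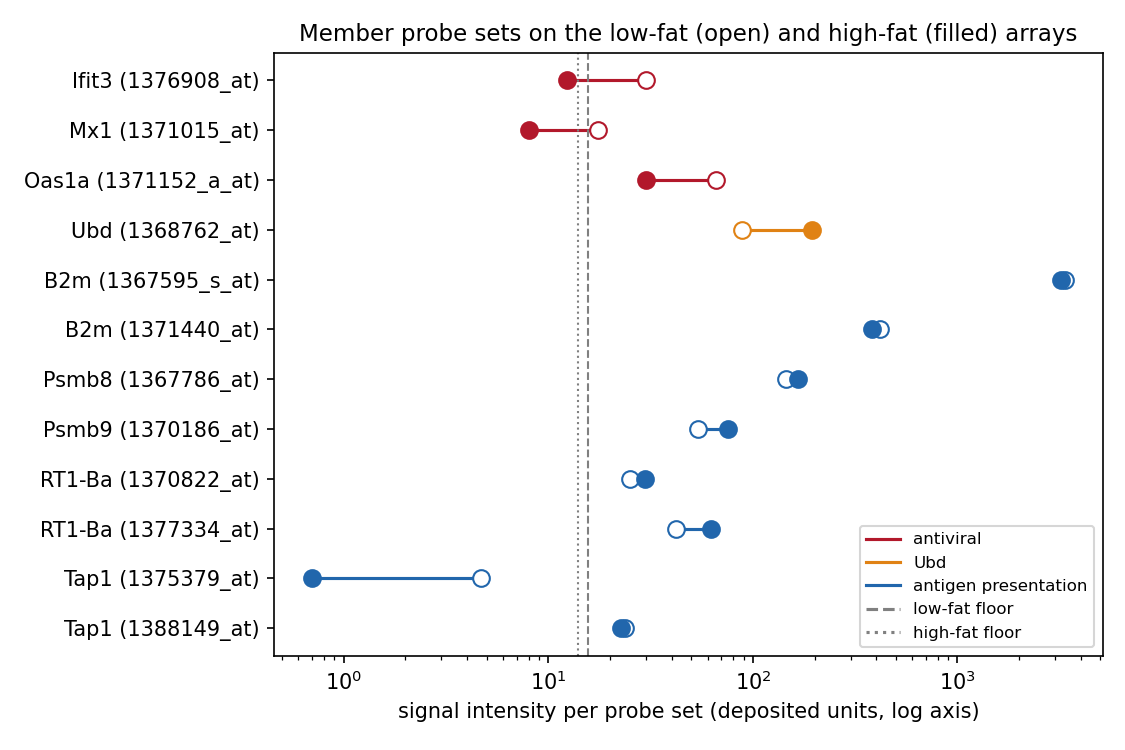
Signal intensity (log axis) of the 12 member probe sets on the low-fat array (open circles) and the high-fat array (filled circles), with each array's floor as a vertical line, 15.7 (dashed, low-fat) and 14 (dotted, high-fat). The 3 antiviral probe sets have the filled circle on the left, Ubd has it on the right, and the circles of each B2m probe set nearly coincide.

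Ubd was higher on the high-fat array. Ubd encodes FAT10, which is attached to proteins and sends them to the proteasome, and which interferon gamma and tumour necrosis factor are known to induce. Its low-fat signal was 88.2 and its high-fat signal 194.4, both well above the floors. The ratio was 1.26 (2.39-fold higher), in a signal class with a robust SD of 0.22 where 0.382% of probe sets were at least 2-fold higher. It ranked 20th from the highest of 7864. Without centring the ratio of Ubd was 1.14, and with a pseudocount of 50 it was 0.88, short of 2-fold. The array had a single Ubd probe set, so there was no second probe set to compare. The enzymes that attach FAT10 were measured too: Uba6, which activates it and was chosen after its values were seen, had signals of 19.2 and 17.6 (ratio -0.01), and Ube2z, which carries it, had 62.9 and 70 (0.27).

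Other ubiquitin-like modifiers and their enzymes lay near the centre. Of 14 measured genes of that list, Ubd among them, 9 were higher and 5 lower, against 50% of all measured genes on either side. The median was 0.07 (-0.05 without centring). Without Ubd 8 were higher and 5 lower, and the median was 0.07. Ubd was the only one past 2-fold, against 0.848% of 6012 measured genes that were at least 2-fold higher. Besides Ubd and Ube2z, the genes of the list farthest from 0 were Map1lc3a, a protein of autophagosomes, at -0.50, and Sumo3, a modifier of nuclear proteins, at 0.18.

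The antigen presentation members lay on the higher side or at the centre, none past 2-fold. Of 8 probe sets 7 were measured, 6 of them higher and 1 lower, against 50% higher among all measured probe sets by the centring. Without centring, a count added after seeing the data, 4 were higher and 3 lower. Their median ratio was 0.32, with a range of -0.01 to 0.68. Among the catalytic immunoproteasome subunits, Psmb9 had signals of 53.8 and 75.9 (ratio 0.61, robust SD 0.29), and Psmb8 had 144.7 and 166.8 (0.32, robust SD 0.22). Both were brighter on the high-fat array, each by more than the robust SD of its signal class. From the highest of 7864 measured probe sets, Psmb9 ranked 296th and Psmb8 1079th. Without centring the ratio of Psmb8 was 0.21, below that SD.

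RT1-Ba was brighter on the high-fat array on both of its probe sets. The first had 42.3 and 62.5 (0.68, robust SD 0.29) and the second 25.2 and 29.7 (0.35, robust SD 0.38). The second value is within the robust SD of probe sets of like signal. Tap1, a chain of the peptide transporter, had 23.7 and 22.7 on its measured probe set (0.05), and 4.7 and 0.7 on the other, which was below both floors and gives no fold. The 2 probe sets of B2m, the light chain of class I, had 3348.8 and 3192.4 (0.05) and 419.7 and 384 (-0.01). Both B2m differences were smaller than the robust SD of 0.17 among the brightest probe sets. Without centring the brighter B2m probe set and Tap1 turned to the lower side, at -0.07 and -0.06, and the other B2m probe set was at -0.13. The brighter B2m probe set was also below 0 with quantile normalization (-0.08) and after loess (-0.06), and both it and Tap1 were within 0.01 of 0, on the lower side, when centred on the hybridization controls.

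**Figure D2:**
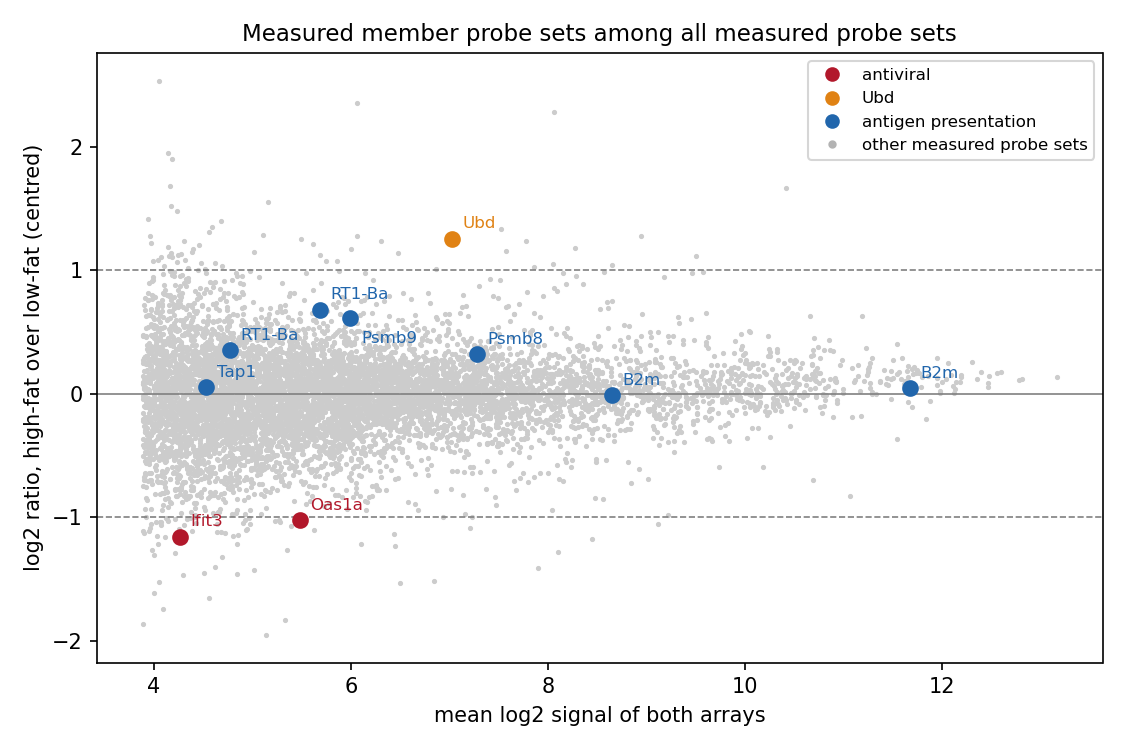
Centred log2 ratio, high-fat to low-fat (vertical) against the mean log2 signal of both arrays (horizontal) for 7864 measured probe sets (grey) and the 10 measured member probe sets (coloured by group); dashed lines mark 2-fold. By the ratio as measured Oas1a and Ifit3 lie below the lower line, Ubd lies above the upper line, and the 7 antigen presentation probe sets between -0.01 and 0.68.

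Set side by side, the median ratio was -1.09 over 2 measured antiviral probe sets and 0.32 over 7 antigen presentation probe sets, a difference of -1.41. With Ifit3 at its bound the difference was -1.32. An offset common to all probe sets cancels in this difference, which was -0.53 with a pseudocount of 50. The 2 measured antiviral ratios, -1.16 for Ifit3 (-0.98 at its bound) and -1.02 for Oas1a, lay below all measured antigen presentation ratios. The genes had been picked for such values, so this separation supports nothing. Mx1 and the dimmer Tap1 probe set, which were not measured, are left out of it.

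A wider list of interferon-stimulated genes did not lie where Oas1a and Ifit3 did. Of 64 listed genes 33 were on the array and 26 measured. Of these 15 were lower and 11 higher, against 50% of all measured genes on either side. The median was -0.05, and -0.17 without centring. By the ratio as measured, only Oas1a and Ifit3 were at least 2-fold lower (0.865% of all measured genes were), Ifit3 with a bound of 1.98-fold, and none was 2-fold higher. Without the members the counts were 13 lower and 11 higher, and the median was -0.05. Ifi27l2b, an interferon-inducible gene with bright signals of 1094.6 and 670.3, was at -0.59 where the robust SD was 0.17. Cxcl9, a chemokine induced by interferon gamma, was on the other side, with 38.1 and 63 (0.84).

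Several other genes of the list are given because they are close relatives of the members or classic interferon-stimulated genes, and they were chosen after their values were seen. Ifit1, of the family of Ifit3, had 15.7 and 15.6 (0.11), with both signals near the floors. Oasl, related to Oas1a, had 15.2 and 17.7 (0.34), its low-fat signal below the floor. Rsad2, the antiviral enzyme viperin, had 18.2 and 20.4 (0.28). Usp18, a feedback inhibitor of type I interferon signalling, had 49.9 and 44.1 (-0.06). Bst2, which tethers budding virus, was brighter at 738 and 522.6 (-0.38), and Tdrd7 had 83.9 and 51.6 (-0.58).

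The signalling genes between interferon and these targets were spread around the centre, from -0.65 to 0.85. Of 17 measured receptors, kinases and transcription factors 9 were higher and 8 lower, against 50% of all measured genes on either side. The median of the 17 was 0.01, and -0.11 without centring. None of them was past 2-fold. Among all measured genes 0.848% passed it on the higher side and 0.865% on the lower, so none among 17 says little. The receptor chain gene Ifnar1 had 19.6 and 11.5 on its measured probe set (-0.65), where the high-fat signal was below the floor, so that it was at least 1.29-fold lower. Socs2, an inhibitor of cytokine signalling known as a growth hormone target, had 17.9 and 29.7 (0.85). Irf7, a regulator that type I interferon induces, had 79.9 and 57.8 (-0.35), and Stat3, a mediator of interleukin-6, had 130.9 and 153.3 (0.34). Irf1 and Irf9, chosen after their values were seen as the factors that act for interferon gamma and type I interferon, were at 0.33 (27.2 and 31.6) and -0.27 (35.6 and 27.2). Each is within the robust SD of its signal class, 0.38 for Irf1 and 0.34 for Irf9. The interferon genes of the list that were on the array had signals below both floors: Ifng had 2 and 0.5, and Ifnb1 had 7.8 and 0.3, both chosen after their values were seen.

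The wider antigen presentation lists were mixed. In the class I list 16 of 23 measured genes were higher and 7 lower, against 50% of all measured genes on either side. None was past 2-fold, and the median was 0.15. Without the members the counts were 12 higher and 7 lower, and the median was 0.15. With the members but without centring 12 were higher and 11 lower, and the median was 0.03. The largest ratios belonged to the class I heavy chain genes RT1-CE16 (23 and 39.4, ratio 0.89) and RT1-N2 (15.4 and 22.1, 0.64, the low-fat signal below the floor, hence at least 1.53-fold higher), to Psmb9, and to Cd1d1, which presents lipids (76 and 46.3, -0.60). The RT1 heavy chains are near-identical copies that vary between strains, so which of them a probe set reads is uncertain.

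Other components of the peptide-loading and proteasome machinery are given for context, and apart from Psmb5 and Psmb7 they were chosen after their values were seen. Psmb10, the remaining inducible catalytic subunit, had 74.9 and 76.4 (0.15). Of the 3 constitutive catalytic subunits, which the inducible ones replace, 2 had a probe set with a single gene symbol. These were Psmb5, at 0.14 (471.4 and 480), and Psmb7, at 0.05 (334.5 and 319.2). Psme1 and Psme2, the interferon-inducible activator, were at 0.06 and 0.15. Tapbp, which bridges class I to the transporter, had 34.3 and 43.7 (0.47, robust SD 0.34). Also in the class I list, Calr had 438.1 and 558.1 (0.47, robust SD 0.17). Pdia3 and Canx, by the probe set that stood for each gene, were at 0.18 and -0.01. Tap2, the partner of Tap1, had 6.9 and 12.4, below both floors.

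Class II genes lay on both sides of the centre. Of 13 measured genes 8 were higher and 5 lower (median 0.04), against 50% of all measured genes on either side. Without the member RT1-Ba the counts were 7 higher and 5 lower (median 0.03). For all 13 without centring, 4 were higher and 9 lower and the median was -0.08. Centred on the hybridization controls their median was -0.02. RT1-Bb, which encodes the beta chain that pairs with that of RT1-Ba, had 34 and 26.2 (-0.26), on the other side from RT1-Ba. This RT1-Bb value is within the robust SD of 0.38 at that signal. The other RT1-Bb probe set, with 11.3 and 10.7, was below both floors. RT1-Da, the alpha chain of the second class II molecule, and Cd74, the invariant chain, were at 0.09 (148.3 and 145.3) and 0.08 (249.6 and 243.7). RT1-DMb, part of the peptide exchanger, had 45.8 and 33.8 (-0.32). The lysosomal proteases Ctsl and Ctss were at 0.33 and -0.41. RT1-Bb, RT1-Da and Cd74 were chosen after their values were seen.

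**Figure D3:**
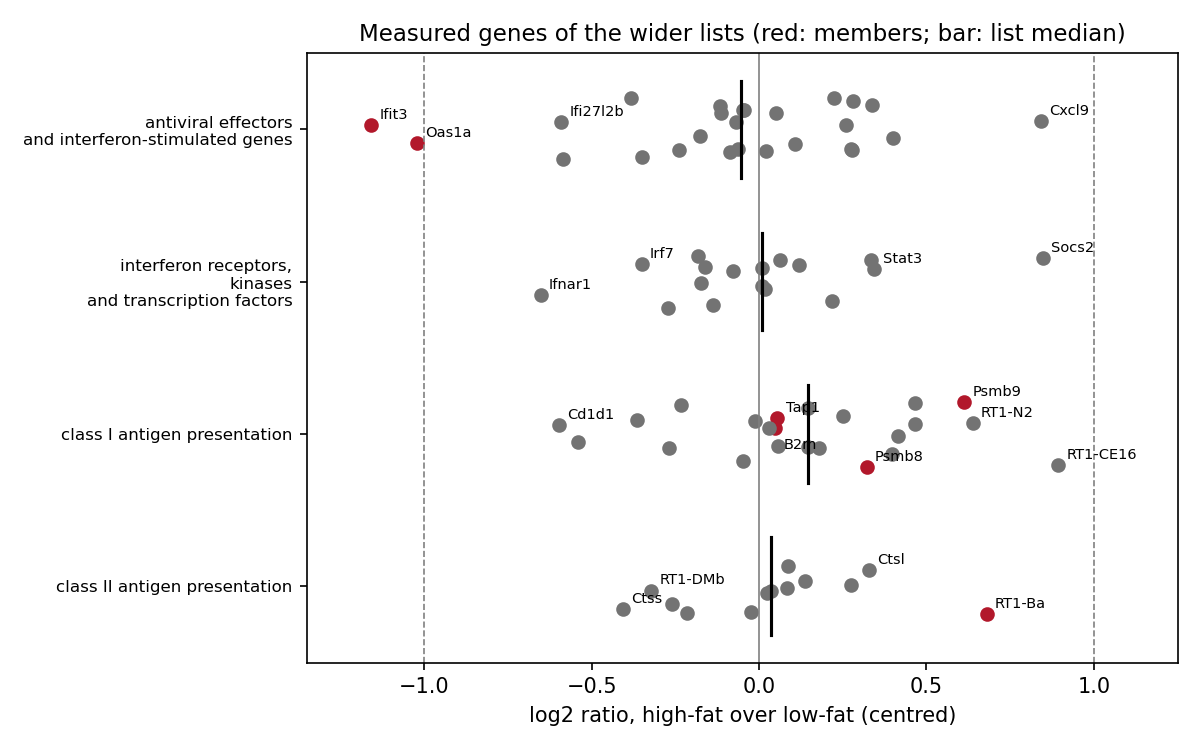
Centred log2 ratio, high-fat to low-fat, for each measured gene (1 probe set per gene) of 4 lists, with members in red, list medians as black bars and 2-fold as dashed lines. By the ratio as measured Oas1a and Ifit3 stand left of the lower line, while the other 24 genes of their list lie between -0.59 and 0.84, and the medians of the 4 lists lie between -0.05 and 0.15.

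The tissue label was checked against markers. Hepatocyte genes gave bright signals, with Alb at 9119.2 and 9255.6. By the centred ratio 4 of 5 were higher, against 50% of all measured genes, with a median of 0.04. Before centring, Ttr, Apoa1, Ass1 and Cps1 had the lower signal on the high-fat array. The summed hepatocyte signals were 22928.4 (low-fat) and 22241.5 (high-fat). Macrophage and Kupffer cell markers, cells that carry class II molecules, had 4 of 8 measured genes higher and 4 lower. Their median was -0.02, with summed signals of 1423.7 (low-fat) and 1240.3 (high-fat). Of the dendritic and B cell list only Cd74 was measured. None of 13 T and NK cell markers was measured, with summed signals of 81.4 and 81.2, and none of 3 neutrophil markers on the array was, with 26.4 and 18.3. Of the endothelial list 1 of 3 genes was measured. In liver tissue, fewer cells of a type and less RNA per cell cannot be told apart, and the part of cell composition in the ratios above was not tested. As a measure of RNA quality, the 3′ over 5′ signal of beta-actin was 2.69 (low-fat) and 2.85 (high-fat), and that of Gapdh 1.58 and 1.67. Diet and any other difference between these RNA samples cannot be told apart.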

How the data were processed

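Total RNA of 2 rat liver samples was hybridised to 1 array each. The deposited values are signal intensities, 1 for each probe set on each array. How the authors corrected, summarised and scaled them is not stated in the labels. Their linear scale was inferred from the range of the values, with maxima of 9119.2 (low-fat) and 9255.6 (high-fat) and no negative number. Samples were grouped by title. Of 15923 probe sets 57 controls were left out, and of the rest 12783 had 1 gene symbol in the platform annotation, 312 several and 2771 none here. Another 4 with a signal of 0 were dropped. Log2 values were taken without a pseudocount. For counts over genes, the probe set with the highest mean log2 signal stood for the gene. Folds with 1 array below its floor are bounds against that floor. Of each wider list, the 4 measured genes with the largest ratio and any past 2-fold were named, and other names are marked in the text. Of the 4 named from the interferon-stimulated list, 2 are members. The members and lists were chosen with earlier results of these data known. Alternatives were no centring, quantile normalization, loess, centring on 18 hybridization controls, 3 other floors, a pseudocount of 50, leaving out probe sets whose names mark possible cross-hybridisation, 1 value per gene, and Ubd placed in either group. The steps were tested on simulated data. Precision is limited by having 1 array per diet. Python 3.11.15 was used with numpy 2.4.6, pandas 2.3.3 and statsmodels 0.14.6.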

Additional observations from a re-analysis of the deposited data

How the results depend on the processing

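Without centring, the antiviral median was -1.21 and the antigen presentation median 0.21, 11 class I genes were lower, 4 class II genes were higher and 9 lower, and 111 probe sets were at least 2-fold lower. With a pseudocount of 50, which compresses dim probe sets, the antiviral median was -0.39, the antigen presentation median 0.15 and their difference -0.53, and 5 probe sets were at least 2-fold higher and 5 lower. With no floor, the antigen presentation median was 0.21 and the difference -1.21, as the dim Tap1 and Mx1 probe sets entered, and 1571 probe sets were 2-fold higher and 1898 lower. With the floor at the 25th percentile these were 389 and 504, and Mx1 was at -0.99. With the floor at the 75th percentile they were 21 and 12, no antiviral member was measured, so that their median and the difference could not be given, and 5 interferon-stimulated genes were higher and 2 class II genes lower. Among the other alternatives run, the antiviral median was between -1.16 and -0.996, the antigen presentation median between 0.27 and 0.34, and the difference between -1.50 and -1.34. Without probe sets whose names mark possible cross-hybridisation, Oas1a was left out and Ifit3 alone stood for the antiviral group. With 1 array per diet no array could be left out. No paired analysis was possible because each diet had 1 array and no test was run. Signals near the floors limit Ifit3, Mx1, Tap1 and the dimmer RT1-Ba probe set.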

Other observations

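The neighbours of the members on chromosome 20 were examined in the RefSeq gene order, 10 protein-coding genes on either side of Psmb9 and of Ubd. Around Psmb9, 11 neighbours were measured, 3 of them members (Psmb8, Tap1 and RT1-Ba), and 7 were higher and 4 lower, against 50% of all measured genes on either side, with a median of 0.05. Without centring 3 were higher and 8 lower, and the median was -0.06, an alternative added after seeing the data. The neighbours named next were chosen after their values were seen. On the lower side were RT1-DMb (-0.32) and RT1-DMa (-0.22), next to Psmb9 on the side away from Tap1. RT1-DMa had 17 and 13.5, the high-fat signal below the floor, hence at least 1.12-fold lower. Also lower were Brd2, a chromatin reader, further on (49.4 and 38.6, -0.24), and RT1-Bb (-0.26) on the side of Tap1. Besides the members, RT1-Da (0.09), RT1-Db1 (0.14), Slc39a7 (0.02) and Hsd17b8 (0.09) were on the higher side. Around Ubd a single neighbour was measured, the GABA receptor gene Gabbr1, with signals of 14 and 16.6 near the floors (0.36).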
